A study of Mus musculus with 16 samples.

Results

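The step from adenoma to carcinoma was read on 10 of the 16 arrays of a series on mouse ileal epithelium: the 5 labelled carcinoma, an invasive tumour, against the 5 labelled adenoma, a benign one. The arrays were chosen by their titles alone, and the other 6, labelled WT, were kept out of the comparison and serve as background. Cells were taken from the ileum, where the small intestine ends, by laser capture microdissection, and their RNA was amplified in 2 rounds before hybridisation to an Affymetrix oligonucleotide array. The sources used here do not give genotype, strain, treatment, age or number of the mice, what the m1 at the start of every title means, or how regions were chosen. No label links an array to an animal, and the p-values below are too small if arrays of a group shared an animal. Of 8251 genes named by at least 1 probe set, 6900 were tested because they were above a floor signal of 41.0 on at least 5 of the 10 arrays, and 1351 did not reach it.

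In an intestinal adenoma, transformed crypt cells grow but stay inside the basement membrane, the sheet of laminin and collagen IV on which an epithelium sits. A carcinoma has crossed that sheet. The crossing is classically tied to proteases that cut matrix, to integrins that grip it, to looser cell junctions and to a stroma of fibroblasts, vessels and leukocytes. Normal ileal epithelium renews itself from crypt stem cells under Wnt signalling, and its absorptive cells take up calcium, sugars, peptides, lipids and bile acids through a brush border. Genes of each of these processes were followed between the tumour stages.

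Several epithelial genes were bright in both tumour groups, though genes of other cell types, described below, also gave signal. Mean log2 signals of Krt8, Epcam, Lgals4 and Vil1, which are a keratin, a surface adhesion protein, a galectin of enterocytes and the actin bundler of microvilli, were 14.57, 12.97, 14.29 and 12.63 in adenoma, against a floor of 5.36. In carcinoma they were 14.79, 13.10, 14.21 and 12.36. Of 18 epithelial identity genes on the array 16 were tested, and none passed the test. Hnf4a and Slc10a2 lay at or near the floor. Cdx2 was dim, with signals of 8.9 to 61.5 in adenoma and 48.3 to 122.8 in carcinoma. On the whole array, the median correlation was 0.913 between adenoma arrays, 0.909 between carcinoma arrays and 0.911 between arrays of different groups. Adenoma 4 and carcinoma 5 stood apart, with median correlations of 0.862 and 0.885 against 0.907 to 0.931 for the other arrays. Signal of the hybridisation spike-ins, the 3' to 5' ratios of Gapdh and actin, the share of probe sets at the floor and the median signal gave an adjusted p of 0.984 each between the groups (two-sided exact permutation tests, smallest possible p 0.00794). The mean log2 3' to 5' ratio of Gapdh was 5.82 in adenoma and 5.7 in carcinoma. For actin it was 5.87 in adenoma and 6.04 in carcinoma, so signal was strongly weighted to the 3' end in both groups.

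Very few genes passed the test between carcinoma and adenoma, which does not show that the others were equal. With limma and Benjamini-Hochberg adjustment, 5 of 6900 genes passed an adjusted p of 0.05, or 0.0725%, and all 5 were lower in carcinoma: S100g, Gpx5, Adh1, Gbx2 and Gpr182. No gene passed as higher in carcinoma, and the smallest adjusted p in that direction was 0.125, for Saa3. At an unadjusted p under 0.05, 84 genes (1.22%) were on the higher side and 141 (2.04%) on the lower side. If no gene differed, 5% in all would be expected at that threshold. Signals of the groups did not overlap for 12 genes with higher carcinoma values (0.174%) and for 31 with lower ones (0.449%). If no gene differed, non-overlap in either direction would have a probability of 0.00794, the smallest p of the two-sided exact permutation test. With both directions counted, non-overlapping genes were no more frequent than that. Non-overlap of a gene, here and below, is therefore a description and not by itself evidence of a difference. Adding array weights raised the count to 14, of which 1, Saa3, was higher in carcinoma, and testing every probe set on its own raised it to 9, of which 1, Capn6, a calpain-family protein, was higher. That Capn6 probe set differed by 2.13, while the brighter one, used in the main comparison, differed by 0.75 with overlapping groups. Capn6 is named after its values were seen. With probe sets lacking a single gene name included, 5 of 9551 probe sets passed, those of S100g, Gpx5, Gbx2 and Adh1. In that limma fit, Capn6 and Gpr182 each had an adjusted p of 0.0553. Leaving out 1 array at a time gave between 0 and 3 genes, and leaving out both adenoma 4 and carcinoma 5 left 1, S100g.

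**Figure D1:**
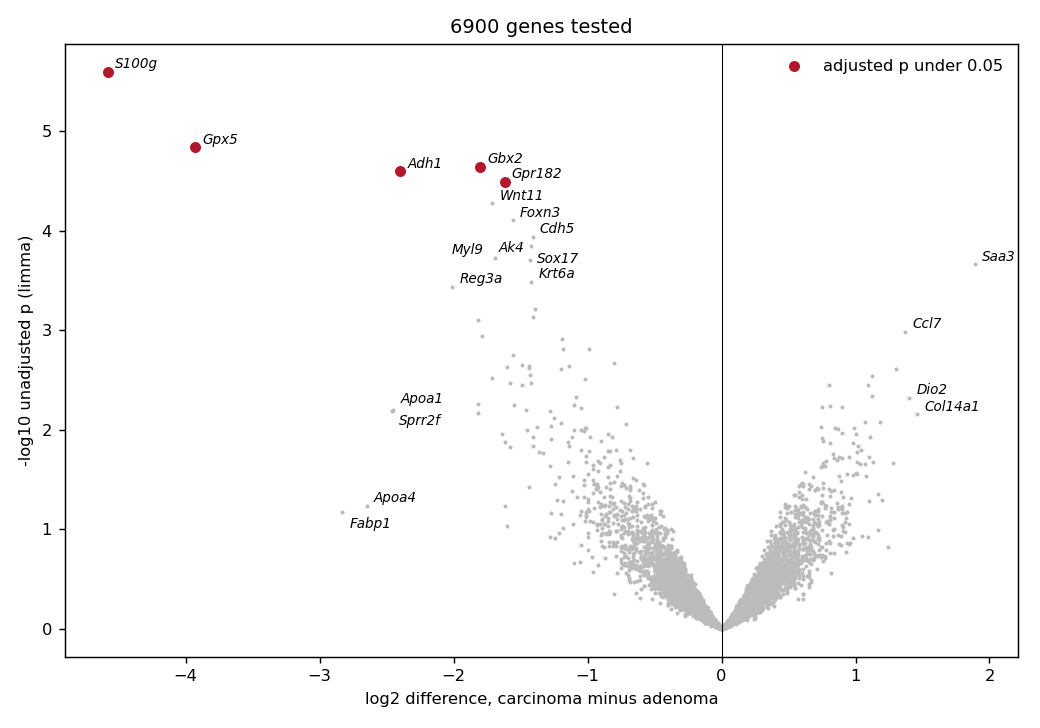
Each point is 1 of 6900 genes, with the log2 difference of carcinoma minus adenoma on the x axis and the -log10 of limma's unadjusted p on the y axis. The 5 red genes passed an adjusted p of 0.05 and all lie on the side of lower signal in carcinoma; on the other side Saa3, at 1.89, is the farthest out with 1 probe set per gene.

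S100g, or calbindin-D9k, binds calcium in the cytosol of absorptive cells and ferries it across the cell under the control of vitamin D. It gave the largest difference of all genes tested. Signals on adenoma arrays 1 to 5 were 6983, 8068, 1662, 5684 and 4985. On carcinoma arrays 1 to 5 they were 254, 75.3, 302, 93.1 and 631. The groups were wide apart, since the lowest adenoma array was well above the highest carcinoma array. S100g fell by 4.58 ± 0.58 (SE) on the log2 scale, a 23.9-fold drop with an adjusted p of 0.0175. A second probe set for S100g differed by -3.95, again without overlap. WT arrays ran from 4.9 to 142 with a median of 64.1, so the carcinoma arrays lay nearer to the WT range than the adenoma arrays did. Of 10 fits that each left out 1 array, S100g passed in 7; its adjusted p reached 0.0721 without carcinoma 4, 0.0674 without adenoma 5 and 0.059 without adenoma 4.

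S100g belongs to a family of small calcium-binding proteins, and annexins bind calcium at membranes. Of 18 S100 and annexin genes tested, S100g alone passed, where 0.0725% of all genes did. The median of the list was 0.19 against 0.01 over all genes. Anxa2 and S100a10, partners in a complex under the plasma membrane, differed by -0.01 and 0.00 with standard errors of 0.33 and 0.28. Anxa1 differed by 0.25 ± 0.30 and S100a6 by 0.06 ± 0.31. The next lowest members were Anxa10 at -0.54 and Anxa4 at -0.51, neither of which passed.

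Gpx5 encodes a secreted glutathione peroxidase best known from the epididymis. Adenoma arrays 1 to 5 read 5629.8, 645, 857, 2233 and 666, and carcinoma arrays read 209, 52.0, 73.9, 113 and 60.9. All adenoma arrays were above all carcinoma arrays, and adenoma 1 was the highest by a wide margin. Gpx5 fell by 3.93 ± 0.59 (adjusted p = 0.0437), and its other probe set differed by -2.20, also without overlap. WT signals ran from 19.5 to 289. Gpx5 passed in 3 of the 10 fits without 1 array. Among the 27 antioxidant and glutathione genes tested, which had a median of 0.10, Gpx2, the peroxidase of the gut epithelium, differed by 0.60 ± 0.32, Gpx3, the plasma form, by 1.13 ± 0.43 and Gpx4, which repairs membrane lipids, by -0.75 ± 0.39. None of these other peroxidases passed.

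Adh1 encodes an alcohol dehydrogenase that oxidises ethanol and retinol. Its signals were 621, 159.9, 579.7, 351 and 362 on adenoma arrays and 65.7, 106, 43.5, 85.4 and 69.1 on carcinoma arrays. All carcinoma arrays were below all adenoma arrays, with adenoma 2 the closest to them. Adh1 fell by 2.40 ± 0.38 (adjusted p = 0.0437). Unlike S100g, it was high in WT, at 178 to 894 with a median of 729, so the carcinoma arrays were below both other groups. It passed in 1 of the 10 fits without 1 array.

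Gbx2, a homeobox factor known from patterning of the hindbrain, gave signals of 201, 159, 234, 125 and 200.1 in adenoma and 56.9, 30.8, 84.5, 21.5 and 45.5 in carcinoma. The carcinoma signals were dim, and those below 41.0 on carcinoma 2 and 4 were set to the floor. That understates both the fall and the spread among carcinoma arrays. Gbx2 fell by 1.80 ± 0.28 (adjusted p = 0.0437). In limma with the floor at the 10th percentile it differed by -2.07 ± 0.37 (adjusted p = 0.149). With the floor at the 40th percentile it differed by -0.82 ± 0.23 (adjusted p = 0.586). WT signals spanned 13.5 to 221. Gpr182 encodes a G protein-coupled receptor known from endothelium and from the intestinal crypt. It read 333, 543, 287, 423 and 249 in adenoma and 109, 106, 125, 100.3 and 137 in carcinoma. The carcinoma arrays lay close together, and none reached the adenoma range. Gpr182 fell by 1.62 ± 0.26 (adjusted p = 0.0448), while its other probe set differed by -1.07 with overlapping groups. WT signals of Gpr182 ran from 13.7 to 236. Gbx2 passed in 1 of the 10 fits without 1 array, and Gpr182 in none of them.

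**Figure D2:**
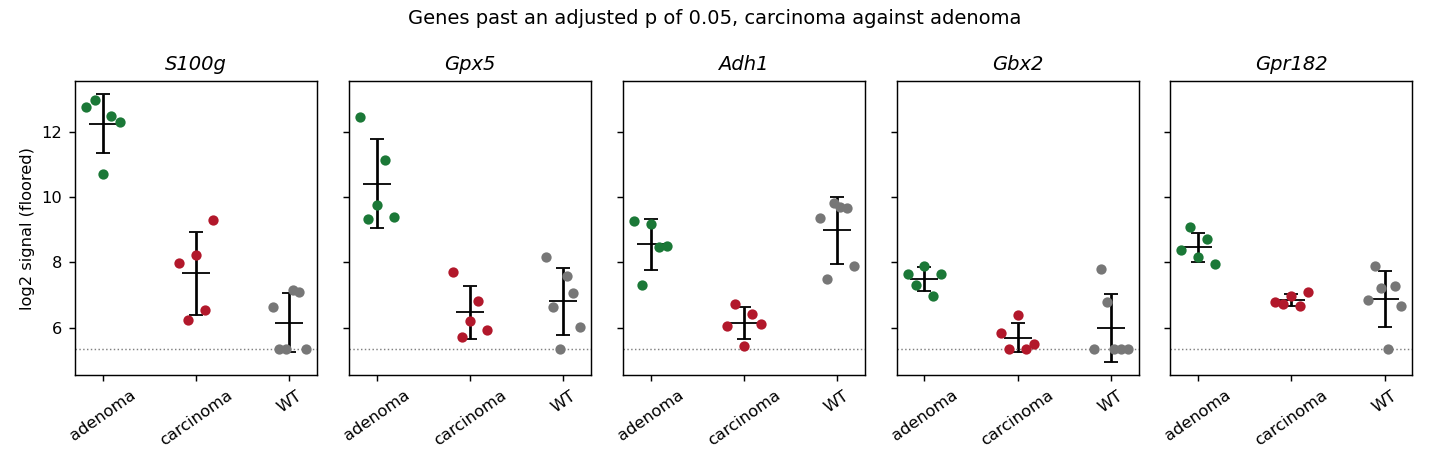
Log2 signal (y axis, floored at 5.36, the dotted line) of the 5 genes past an adjusted p of 0.05, with 1 point per array in adenoma, carcinoma and WT and the group mean ± SD in black. Carcinoma points lie below all adenoma points in each panel; WT lies near carcinoma for S100g and near adenoma for Adh1.

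Of the 5 genes that passed, start regions are shown for the 3 with the largest differences, S100g, Gpx5 and Adh1. RefSeq promoter windows on GRCm38.p6, cut here to the 250 bases before and 10 bases after the annotated start, were found for 4 of the 5 genes, S100g, Gpx5, Adh1 and Gbx2. They were searched on both strands for 5 motifs: the core promoter box TATAAA, the letters TTTATG of Cdx factors, AGATAA of zinc-finger factors of endoderm, AGGTCA of nuclear receptors (a half-site of the class that holds the vitamin D receptor) and CTTTGA of Tcf/Lef factors. No matches overlapped, and capitals mark the matches. The S100g window spans chrX:162964590-162964849 on the minus strand, the Gpx5 window chr13:21292677-21292936 on the minus strand and the Adh1 window chr3:138277335-138277594 on the plus strand.
S100g: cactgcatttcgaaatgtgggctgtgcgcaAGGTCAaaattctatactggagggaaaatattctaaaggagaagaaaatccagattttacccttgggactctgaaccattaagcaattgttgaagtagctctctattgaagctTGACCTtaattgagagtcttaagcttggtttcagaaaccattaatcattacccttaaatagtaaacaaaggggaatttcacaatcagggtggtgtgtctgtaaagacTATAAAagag
Gpx5: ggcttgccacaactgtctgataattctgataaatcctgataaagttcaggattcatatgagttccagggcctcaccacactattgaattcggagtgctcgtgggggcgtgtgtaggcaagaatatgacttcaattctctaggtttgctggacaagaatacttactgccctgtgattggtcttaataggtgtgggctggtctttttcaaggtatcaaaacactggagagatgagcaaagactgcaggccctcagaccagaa
Adh1: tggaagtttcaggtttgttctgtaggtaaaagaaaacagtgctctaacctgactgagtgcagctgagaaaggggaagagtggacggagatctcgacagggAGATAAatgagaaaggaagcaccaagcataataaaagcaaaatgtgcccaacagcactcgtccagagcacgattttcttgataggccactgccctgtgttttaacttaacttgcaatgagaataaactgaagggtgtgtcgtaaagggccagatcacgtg
The S100g window holds the nuclear receptor half-site at 220 bases before the start and, on the opposite strand, at 107 bases, and TATAAA at the annotated start itself. The Adh1 window holds AGATAA at 150 bases before the start. None of these exact strings of letters is in the Gpx5 or Gbx2 window. Variants with other letters, such as the TGATAA in the Gpx5 window, were not searched for. Of 32540 windows of this length, 14.5% hold AGGTCA, 12.6% TATAAA, 10.3% AGATAA, 11.1% TTTATG and 14.3% CTTTGA, so single matches are common. That set counts identical sequences once and leaves out the windows of a chromosome.

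Below the threshold, the next genes on the lower side were Wnt11, Foxn3, Cdh5, Ak4, Myl9 and Sox17. In the probe sets tested they had adjusted p-values of 0.0611 to 0.123 and no overlap between the groups. Other probe sets of Foxn3 and Ak4 differed by only -0.48 and -0.41, with overlapping groups. Wnt11, a Wnt ligand that acts mostly without beta-catenin, read 138 to 268 in adenoma and 30.2 to 76.2 in carcinoma, a difference of -1.71 ± 0.29. Sox17, a factor of early endoderm and of endothelium, read 1212, 1225, 1746, 1593 and 1604 in adenoma and 469, 336, 563, 608 and 868 in carcinoma. Every Sox17 carcinoma signal lay under every adenoma signal but above the WT maximum of 264. The Sox17 difference was -1.43 ± 0.28 (adjusted p = 0.123), with -1.78 from a second probe set. Krt6a, a keratin of stressed and wounded epithelium, differed by -1.42 ± 0.29 (adjusted p = 0.173) and by -1.50 in its other probe set, with overlapping groups. Reg3a, an antimicrobial lectin, differed by -2.01 in the brighter probe set and by -0.52 in the other, where the groups overlapped. Mal, a membrane protein of apical transport, and Smim1 differed by -1.41 and -1.39.

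Several of these genes mark other cell types as well, so the whole marker lists are given beside them. Cdh5, the cadherin of endothelial junctions, read 709 to 1639 in adenoma and 333 to 417 in carcinoma, a difference of -1.41 ± 0.26 (adjusted p = 0.0988). Other endothelial markers had values on both sides of 0. Pecam1 differed by 0.11, Kdr by 0.41, Tie1 by 0.22 and Vwf by -0.40, and 12 of 21 endothelial genes had positive values around a median of 0.21, which was -0.10 without adenoma 4. Their summed signal ran from 7251 to 13954 in adenoma and from 5754 to 13657 in carcinoma, and 6 further markers, Icam2, Cldn5, Nos3, Sele, Selp and Prox1, lay at or near the floor. Myl9, a myosin light chain of smooth muscle and of contractile cells in general, differed by -1.69 ± 0.33 (adjusted p = 0.123). Acta2, Myh11 and Tagln, which are the defining smooth muscle genes, differed by -0.26, -0.37 and 0.47, and the 13 smooth muscle genes had a median of 0.14.

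On the higher side, with 1 probe set per gene, the leading gene was Saa3, an acute phase protein made by inflamed epithelium and macrophages. Adenoma arrays read 864, 1064, 1304, 1025 and 1542, and carcinoma arrays read 2588, 6617, 3369.8, 9089.7 and 2497. All carcinoma arrays were above all adenoma arrays, and the WT arrays, at 11.9 to 163, were far below both. The Saa3 difference was 1.89 ± 0.37 (adjusted p = 0.125); it passed at 0.05 in 2 of 25 alternative fits, those with array weights and with a variance trend. Ccl7, a chemokine that draws monocytes, read 18.3 to 105 in adenoma and 135 to 244 in carcinoma (1.37 ± 0.33, adjusted p = 0.397). Dio2, the deiodinase that activates thyroid hormone, differed by 1.40 ± 0.41, E2f3, a cell cycle factor, by 1.12 ± 0.31 and Lcp1, an actin bundler of leukocytes, by 0.81 ± 0.24. Complement factor B (Cfb) differed by 1.30 in one probe set and by -0.11 in the other. The 25 acute phase and defence genes tested had a median of 0.15, with 16 positive. Saa3, picked above for its rank, was the only one of them without overlap, against 0.174% of all genes on the higher side. Beside these, 23 of 31 macrophage and neutrophil genes were positive (median 0.26, or 0.14 without carcinoma 4), with summed signals of 19606 to 28035 in adenoma and 21037 to 29361 in carcinoma, and none passed. In captured samples like these, fewer cells of a type and less RNA per cell cannot be told apart, and the part that leukocytes had in the Saa3 and Ccl7 values was not tested.

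Genes that cut or hold the matrix, the machinery of invasion, gave no call. Of 29 matrix proteases and inhibitors tested, 19 had positive differences, with a median of 0.14 and no member past the threshold. For 5 of the 29 the 95% interval lay within 2-fold in either direction, against 55.5% of all genes. Mmp3 (stromelysin) read 30.5, 5.9, 45.6, 193 and 100.3 in adenoma and 263, 93.6, 94.1, 309 and 178 in carcinoma. The groups overlapped, and the difference was 1.28 ± 0.49 (adjusted p = 0.999). Mmp7 (matrilysin), which intestinal tumour cells make, was already bright in adenoma, at 3927 to 8679.7 against 4567 to 9948 in carcinoma and 521 to 2536 in WT. The Mmp7 difference of 0.27 ± 0.31 has a 95% interval of -0.40 to 0.94. Adam17 and Adam8, proteases that shed proteins from the cell surface, differed by -0.96 ± 0.37 and -0.88 ± 0.33, Timp2, a protease inhibitor, by 0.91, and Plau, the urokinase, by 0.14.

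The basement membrane list was centred near 0. Its 28 tested members had a median of -0.01, or 0.01 with array medians aligned, and for 18 of them the 95% interval lay within 2-fold. Laminin and collagen IV chains differed little: Lamc1 by -0.01, Col4a1 by -0.05 and Lama5 by 0.17. The integrin chains Itgb1, Itga6 and Itgb4, which hold cells to laminin, differed by -0.06, 0.22 and 0.03. Nid1, which links laminin to collagen IV, was the highest at 0.71 ± 0.31, from dim signals of 12.3 to 55.6 in adenoma and 35.4 to 102 in carcinoma. Hspg2 (perlecan) was the lowest at -0.46.

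**Figure D3:**
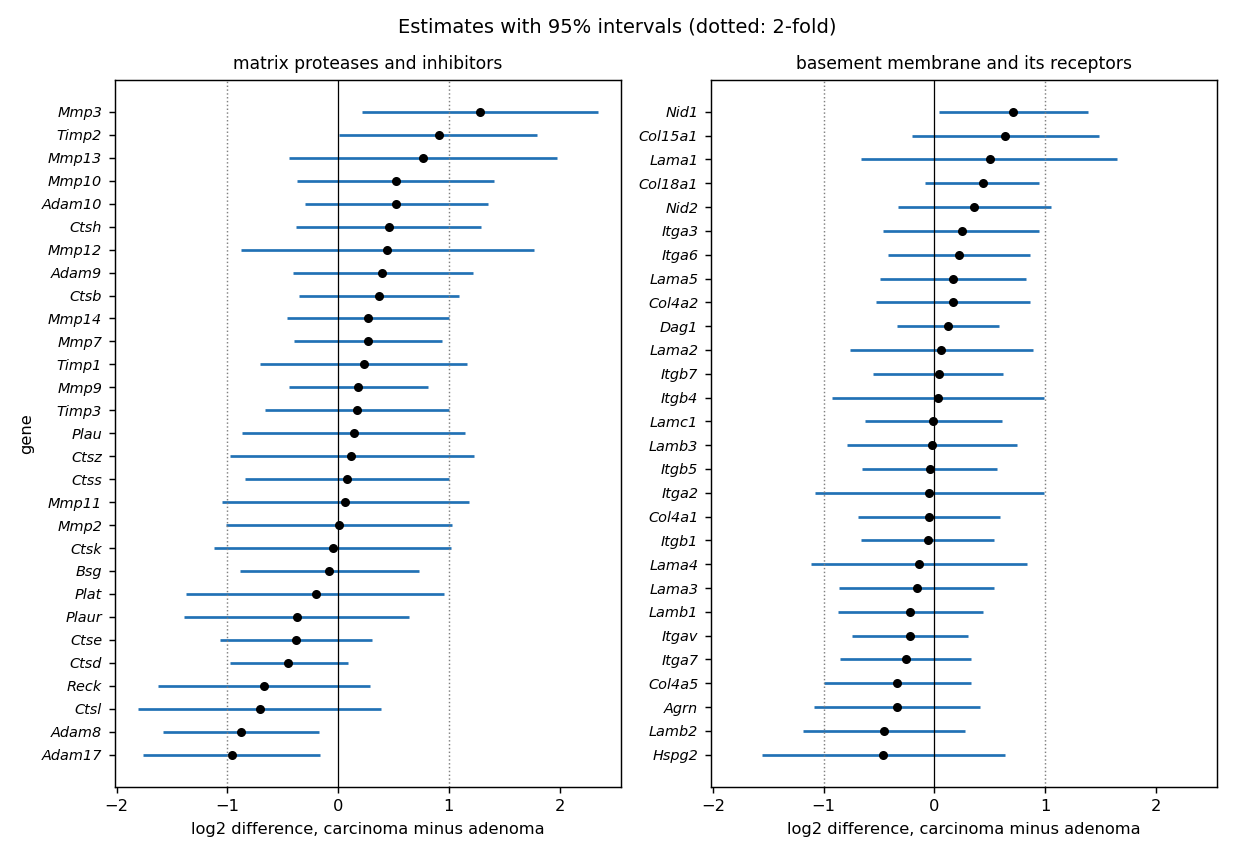
Log2 difference of carcinoma minus adenoma (x axis) with its 95% interval for every tested matrix protease or inhibitor (left) and every tested basement membrane or receptor gene (right). Most intervals cross 0; Mmp3 at 1.28 and Adam17 at -0.96 are the extremes on the left, and Nid1 at 0.71 and Hspg2 at -0.46 on the right.

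No junction or mesenchymal gene passed. Of 26 junction genes tested, 14 were positive, and 17 had intervals within 2-fold. E-cadherin (Cdh1) differed by 0.12 ± 0.25, beta-catenin (Ctnnb1) by 0.19 ± 0.33 and Epcam by 0.13 ± 0.24. Cldn8 (1.01 ± 0.41) and Cxadr (-0.59 ± 0.25), both of tight junctions, were the most distant. Of 14 genes of the epithelial-mesenchymal transition, the switch by which epithelial cells take on a migratory form, 8 were positive, with a median of 0.13 that was -0.01 without adenoma 1, and 5 had intervals within 2-fold. Zeb1 and Snai2, factors that repress E-cadherin, differed by -0.33 and 0.30. Vim (vimentin) and Cdh2 (N-cadherin) differed by -0.53 and -0.68, while Twist2 and Sparc differed by 0.73 ± 0.45 and 0.58 ± 0.37. None of them passed, and Snai1, Twist1, Cdh11, S100a4, Axl and Met lay at or near the floor and were not tested. Among 14 keratins, Krt20, a keratin of mature villus cells, read 11699 to 21720.3 in adenoma and 7017 to 14701 in carcinoma, a difference of -0.82 ± 0.28 (adjusted p = 0.982).

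Brush border and lipid absorption genes had mostly negative differences, and none of them passed. The brush border and digestion list had the lowest median of the 50 lists in this fit, -0.57, with 18 of 19 tested members negative, where all genes had a median of 0.01 and 51.4% positive. Without adenoma 1 the median was -0.29, above that of the mast cell list at -0.42. Slc34a2, a phosphate transporter, read 48.2 to 259 in adenoma and at most 53.2 in carcinoma (-1.49 ± 0.39, adjusted p = 0.551), and Slc3a1, of the cystine transporter, differed by -1.38 ± 0.46. Lactase (Lct) differed by -1.60 ± 0.89, and its adenoma signals of 2932, 141, 2206, 182 and 162 were uneven: adenoma 1 and 3 were high and the other adenoma arrays lay within the carcinoma range. Vil1 and Ezr, which build the microvillus core, differed by only -0.27 and 0.03. The summed signal of the list was 14074 to 21912 in adenoma and 12093 to 15568 in carcinoma, so the groups overlapped.

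Lipid genes were uneven across the same adenoma arrays. Of 23 lipid absorption genes tested 19 were negative, with a median of -0.40. Apoa1, an apolipoprotein of chylomicrons and HDL, read 8009.9, 773, 7653, 1376 and 3423 in adenoma and 284, 1261, 724, 1336 and 134 in carcinoma. Adenoma 2 fell inside the carcinoma range, the other adenoma arrays lay above it, and the difference was -2.45 ± 0.75 (adjusted p = 0.813). Fabp1, the liver-type fatty acid binder, differed by -2.83 ± 1.41, with adenoma signals from 45.7 to 12932 and carcinoma signals from 16.3 to 693. Slc27a4, a fatty acid transporter, was steadier: 209, 358, 271, 331 and 198 in adenoma against 48.5, 82.4, 40.7, 190.3 and 165 in carcinoma. Its groups did not overlap, and the difference was -1.60 ± 0.43 (adjusted p = 0.551). Bile acid genes as a list were centred near 0, with 4 of 9 tested positive, and their median of -0.03 ran from -0.30 without carcinoma 5 to 0.06 without adenoma 2. The lowest members were Abcc2 and Slc51a. Abcc2, an exporter of conjugated bile acids and drugs, differed by -1.82 ± 0.42 (adjusted p = 0.323) and Slc51a, of the basolateral bile acid exporter, by -1.02 ± 0.28. For Slc51a, WT signals of 895.5 to 3179 were above both tumours. Of 49 xenobiotic genes tested, 28 were negative and 42.9% positive, against 51.4% positive over all genes. Adh1, described above, alone passed, where 0.0725% of all genes did.

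**Figure D4:**
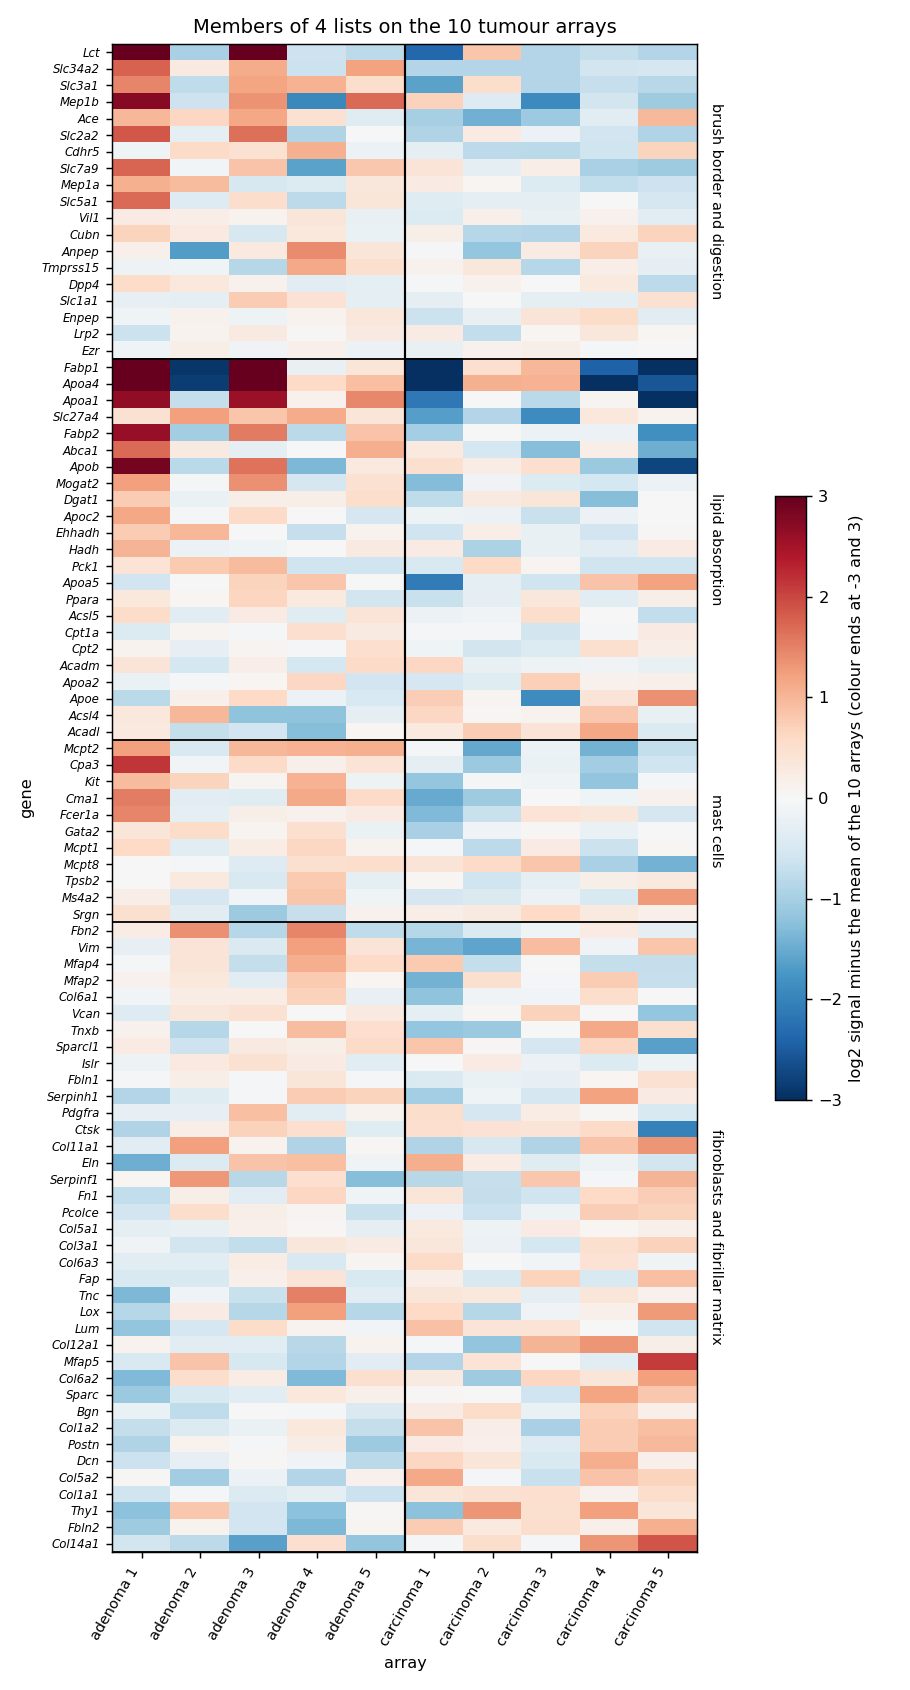
Log2 signal of each gene (rows) on each tumour array (columns) minus its mean over the 10 arrays, for 4 lists. Red in the upper blocks sits mainly in adenoma 1 and 3, as for Lct at 2932 and 2206, and the mast cell block is paler or blue on most carcinoma arrays.

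Mucus, antimicrobial and hormone genes had values on both sides of 0. Of 21 goblet cell genes 12 were negative and none passed. Muc1, a membrane mucin, differed by -1.55 ± 0.47 (adjusted p = 0.813), Clca1, a secreted goblet protein, by -1.05 and Muc3 by -0.83, while Tff3 and Agr2, a trefoil peptide and a folding enzyme of the same cells, differed by 0.01 and 0.45. Clca1 was far brighter in WT, at 27730.3 or more, than in adenoma, at 8045 or less. Of 11 Paneth and antimicrobial genes 7 were positive, and of 16 enteroendocrine genes 9.

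The fibroblast and fibrillar matrix list had the highest median in this fit, 0.28, with 24 of 38 tested members positive and none past the threshold. The median was 0.16 without adenoma 1, and with quantile normalization it was 0.26, below the 0.28 of macrophages and neutrophils. Col1a1, the main chain of collagen I, read 1091, 1629.8, 1238, 1342 and 1063 in adenoma and 2121, 2288, 2343, 1824 and 2395 in carcinoma. All carcinoma arrays were higher in that probe set (0.80 ± 0.22, adjusted p = 0.613), but a second Col1a1 probe set differed by -0.17. Fbln2, a fibulin of elastic matrix, differed by 1.12 ± 0.33, also without overlap, Col14a1, a collagen on fibril surfaces, by 1.46 ± 0.46 and Dcn (decorin) by 0.70 ± 0.31. Fn1, Col3a1 and Pdgfra differed by 0.17, 0.32 and -0.07. The list's summed signal ran from 13477 to 21614 in adenoma and from 17216 to 30460 in carcinoma.

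Mast cell genes had mostly negative differences. Of 11 tested, 10 were negative, with a median of -0.51 and none past the threshold. Mcpt2, a protease of mucosal mast cells, read 3766, 1162, 3187, 3309.9 and 3372 in adenoma and 1564, 548, 1415, 594 and 973 in carcinoma. Adenoma 2 fell inside the carcinoma range and the other adenoma arrays lay above it, for a difference of -1.56 ± 0.40 (adjusted p = 0.532). Cpa3, the mast cell carboxypeptidase, read 259 to 1218 in adenoma and 127 to 239 in carcinoma without overlap (-1.28 ± 0.40), and its other probe set gave -1.53. Kit, the receptor these cells depend on, differed by -1.03 ± 0.34, Tpsb2 (a tryptase) by -0.14 and Srgn by 0.60. WT signals of Mcpt2 and Cpa3 did not exceed 138 and 161. Mcpt4, Tpsab1 and Hdc lay at or near the floor, and the summed signal was 4612 to 9713 in adenoma and 2977 to 5228 in carcinoma. T, B and plasma cell genes were even, with 16 of 31 positive.

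Genes of proliferation differed little between the stages. Of 47 DNA replication genes 36 were positive with a median of 0.12, and of 37 mitosis genes 26 were positive with a median of 0.17; none passed. For 32 genes of each list the 95% interval stayed within 2-fold. Pcna, the sliding clamp of replication, read 4199.7 to 6953 in adenoma and 6521 to 9201 in carcinoma (0.48 ± 0.23). Cdkn1a, the p21 inhibitor of cell cycle kinases, differed by -0.59 ± 0.26 and by -1.02 in its other probe set. Heat shock and unfolded protein response genes leaned one way, with 27 of 29 positive, where 51.4% of all genes were. Their median was 0.25, but no member passed. Mean log2 signals of the list were 10.27 and 10.06 on carcinoma 2 and 3. On carcinoma 1, 4 and 5 they were 9.64, 9.6 and 9.69, within the adenoma range of 9.35 to 9.86. Hspd1, a mitochondrial chaperone, differed by 0.57 ± 0.29 and Hspa1a, an inducible cytosolic one, by 0.96 ± 0.61, with carcinoma signals from 188 to 3437.

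Wnt target and stem cell genes had values on both sides of 0, and none passed. Of 25 Wnt target genes 15 were positive with a median of 0.07, and of 16 stem cell genes 10 with a median of 0.17, which ran from 0.10 without adenoma 5 to 0.40 without adenoma 4. Smoc2, a secreted matrix protein of crypt stem cells, read 168, 174, 274, 324 and 315 in adenoma and 505, 535, 325, 559 and 340.0 in carcinoma. The groups came close without overlapping, carcinoma 3 being just above adenoma 4, and the difference was 0.87 ± 0.29 (adjusted p = 0.948). Lgr5, the stem cell receptor for R-spondins, differed by 0.61 ± 0.29, Axin2, a feedback inhibitor of the pathway, by 0.79 ± 0.42 and Myc by 0.05 ± 0.36. In TGF-beta and BMP signalling 22 of 38 genes were negative. Ltbp1, which stores latent TGF-beta in the matrix, differed by -1.44 ± 0.38 and Nog, a BMP antagonist, by -0.76 ± 0.29. Ltbp1 was above the floor on only 4 adenoma arrays and 1 carcinoma array, so it just met the filter and its difference rests on floored values. Smad4, a shared mediator lost in many invasive intestinal tumours, differed by -0.10 ± 0.24, with an interval of -0.62 to 0.42.

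**Figure D5:**
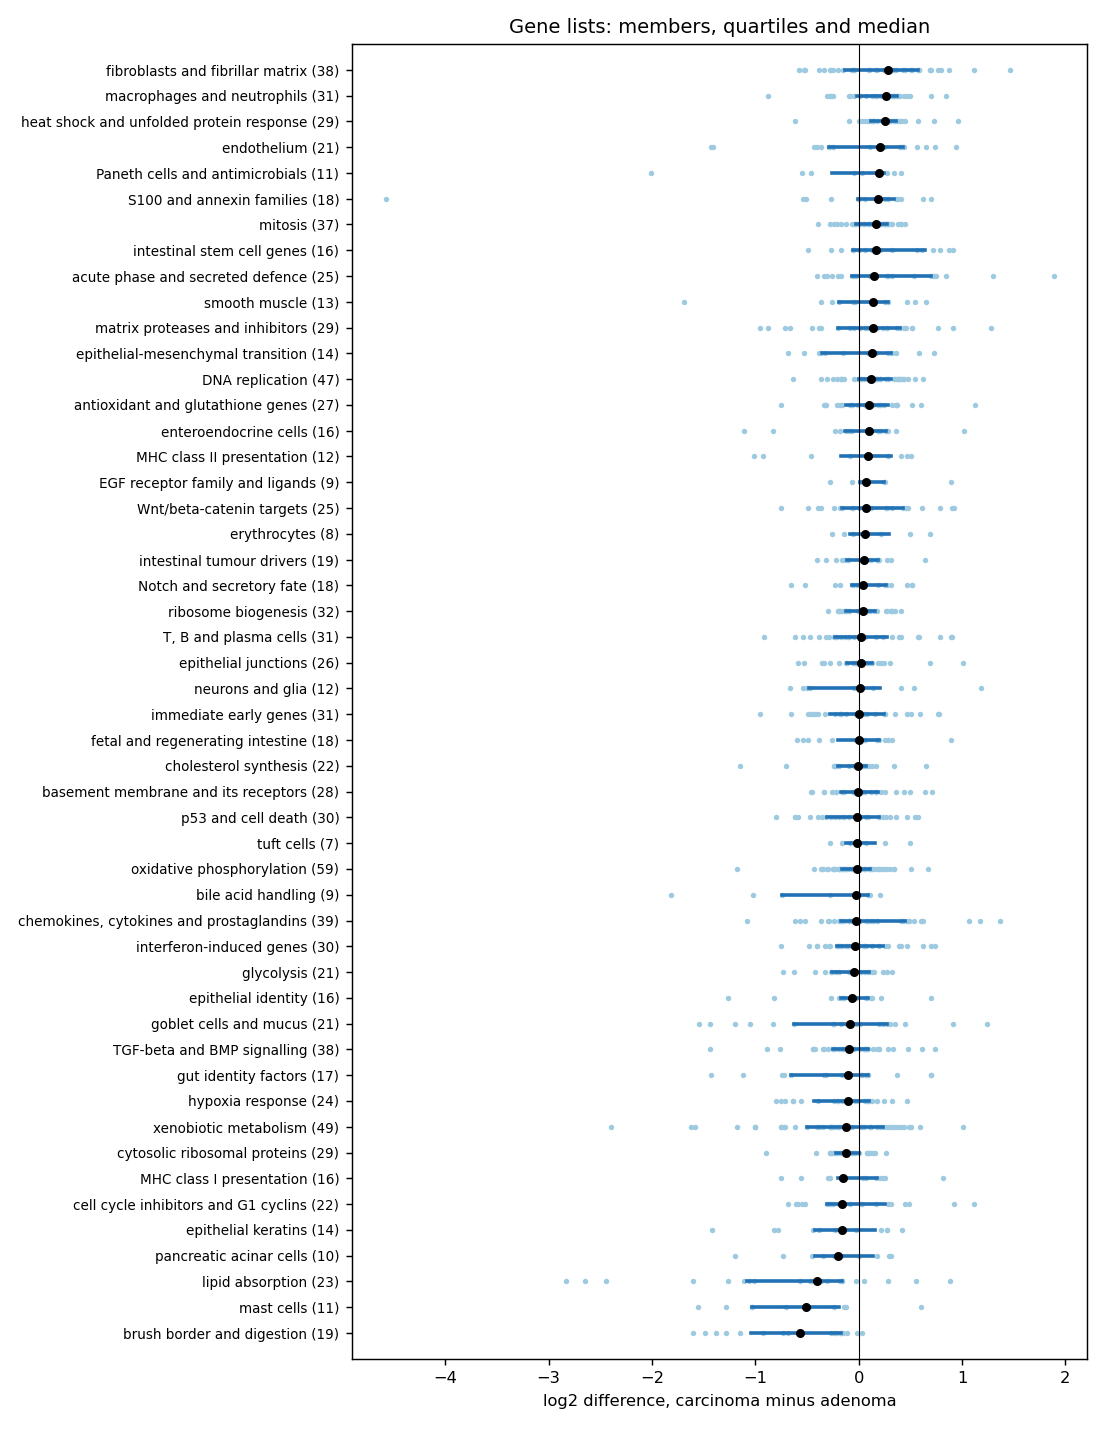
Log2 difference of carcinoma minus adenoma (x axis) for the members of 50 gene lists (rows, number tested in brackets): light points are members, the bar joins the quartiles and the black point is the median. Medians run from -0.57 (brush border and digestion) to 0.28 (fibroblasts and fibrillar matrix), and S100g at -4.58 lies alone on the left.

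The size of what could be seen was limited by the number of arrays. The median standard error was 0.33, which gives a median 95% half-width of 0.72 on the log2 scale, or 1.65-fold. For 3827 genes (55.5%) the interval lay within 2-fold in either direction, while for the remaining genes the interval reached beyond 2-fold. Estimates beyond 2-fold numbered 101 on the lower and 30 on the higher side. The spread among carcinoma arrays was no wider than among adenoma arrays, with a median SD of 0.51 in each.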

How the data were processed

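Groups and replicate numbers came from the sample titles. The deposited values, 1 per probe set and array, are probe set intensities on a linear scale and the sources used here do not name the software behind them. The trimmed mean (2% off each end) was 500.3 to 500.4 on every array, and no further normalization was applied. Of 12488 probe sets, 66 are Affymetrix controls, 10833 have a single gene symbol in the platform annotation, 396 have several and 1193 are unnamed here. Signals under the 25th percentile of the 10 tumour arrays (41.0) were raised to that floor before taking log2. Differences of dim genes, and their spread among arrays, are therefore understated. The probe set with the highest mean stood for its gene. Genes above the floor on at least 5 arrays were tested by lmFit and eBayes of limma 3.58.1 under R 4.3.3, with 8 residual degrees of freedom and two-sided, with Benjamini-Hochberg adjustment at 0.05. WT arrays were not in the fit. The fit was tested on simulated data.

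The genes named were, per direction, up to 15 with the largest difference past the threshold, filled up to 15 by smallest unadjusted p, up to 3 per list by smallest p, and markers that bear on a label. Other list members were chosen for their known role after their values were seen. The comparison, the 50 lists and the alternatives were chosen with earlier results of these data known, so no list was tested. Alternatives were quantile normalization, aligned medians, other floors and filters, other handling of probe sets, array weights, a replicate block, a robust fit with a variance trend, all 16 arrays, control measures as covariates and each array left out. Python 3.11.15 and matplotlib 3.10.9 drew the figures. No arrays were identical. Probe sets without a single gene name were tested in a separate fit of all probe sets.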

Additional observations from a re-analysis of the deposited data

Results flagged for a closer look

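In 4 of 70 groups of 5 tumour arrays examined for the 30 leading genes and the 5 control measures, 1 array lay far from the other 4 by Dixon's gap test. About 1 in 20 such groups is expected to do so by chance. Ak4, a mitochondrial adenylate kinase, read 65.7 on carcinoma 2, while 3 of the other carcinoma arrays were at the floor. Mal read 102.6 on carcinoma 4, where 3 of the others were again at the floor. Cacna2d1, a calcium channel subunit, read 80.6 on carcinoma 3 and at least 135.1 on the other carcinoma arrays. Htra3, a secreted serine protease, read 77.5 on carcinoma 1 and at least 104.7 on the others.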

How the results depend on the processing

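The count of 5 genes depended on the settings. It was 1 with quantile normalization, 1 with aligned medians, 0 with a floor at the 10th percentile (275 genes at an unadjusted p under 0.05 in limma), 3 with a floor at the 40th, 0 without a filter (295 at an unadjusted p under 0.05), 9 with every probe set on its own, 14 with array weights, 2 with all 16 arrays and 2 with the Gapdh ratio as covariate. It was 5 with a stricter filter (the same 5 genes), 6 with the spike-in signal (5 of them shared), 6 with averaged probe sets (4 shared) and 7 with a variance trend (3 shared), which lost Gbx2 and Gpr182 and added Cdh5, Myl9, Sox17 and Saa3. Leaving out 1 array gave 0 to 3, with 0 without adenoma 4 (284 genes at an unadjusted p under 0.05), adenoma 5 (242) or carcinoma 4 (210). Without both adenoma 4 and carcinoma 5, chosen after seeing the data, it was 1. In the fit of all 9551 probe sets, named or not, 5 probe sets passed, and none was of Capn6 or Gpr182. S100g passed in 19 of 25 alternatives, Gpx5 in 13, Adh1 in 7, Gbx2 in 6 and Gpr182 in 5, and none of them changed direction. The cause of these changes was not tested.

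Deviations of same-numbered arrays gave mixed correlations (0.29, 0.01, 0.06, 0.26 and -0.23), which do not settle whether they are pairs. Only adenoma 1 correlated best with the carcinoma array of its own number. As no label pairs the arrays, the numbers were not taken as pairs. With the replicate block 2 genes passed in limma, Gpx5 and Sprr2f, and S100g had an adjusted p of 0.0621.

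Of 37 named genes with several probe sets above the floor on 5 or more arrays, 11 had one of opposite sign: Cd247, Cfb, Col1a1, Ctse, Cyp1a1, Gadd45b, Ifi204, Mogat2, Ms4a1, Reg1 and Vav1. Of the 50 list medians, 20 kept their sign in all 13 settings tried for them. Vav1 was -0.09 with averaged probe sets, -0.69 in another probe set and -0.05 without adenoma 1, with leave-one-out values up to 0.62. Other probe sets gave -0.77 for Cyp1a1 and -0.83 for Ifi204. Cfb was 1.5 without adenoma 5. Without carcinoma 2 it was -0.09, because its other probe set then had the higher mean and stood for the gene. Control measures, whose differences were small, also changed sign. The spike-in difference was 0.0242 with quantile normalization and 0.0878, 0.299, 0.0732 and 0.158 without adenoma 2, adenoma 4, carcinoma 1 and carcinoma 3, and at its lowest -0.224 without adenoma 3. The share at the floor differed by -0.121, -0.257 and -1.29 percentage points without adenoma 2, adenoma 4 and carcinoma 1, and at its highest by 1.59. The median signal differed by 0.213 with quantile normalization and by 1.66, 4.67 and 6.79 without those arrays, and at its lowest by -7.84. The Gapdh ratio ran from -0.306 to 0.0691, the latter without carcinoma 4.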

Other observations

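Oxygen and energy genes were not described above. Of 24 hypoxia response genes tested 15 were negative, with a median of -0.10 and none past the threshold in limma's fit. Mxi1, a Myc antagonist induced at low oxygen, read 744, 593, 415, 483 and 499.5 in adenoma and 329, 329, 301, 330.2 and 352 in carcinoma. The groups did not overlap, and the difference was -0.71 ± 0.23 (adjusted p = 0.948). P4ha2, a prolyl hydroxylase of collagen, differed by -0.64 in its brighter probe set and by -0.11 in the other. Of 59 oxidative phosphorylation genes, 48 had an interval within 2-fold. Cox7a1, a heart and muscle form of a cytochrome oxidase subunit, stood apart from them at -1.18 ± 0.30 (adjusted p = 0.482), with 208 to 403 in adenoma and 69.8 to 157 in carcinoma.

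Myom1, a protein of the muscle M-band, was at the floor on all 5 carcinoma arrays and read 43.6 to 170.0 in adenoma and 118 to 320.5 in WT. The filter admits a gene at the floor on all carcinoma arrays only where all adenoma arrays are above it, so this contrast follows from how the gene was picked. Of 1088 probe sets without a single gene name, none passed in limma's fit of all probe sets, the smallest adjusted p being 0.241, and 37 had an unadjusted p under 0.05.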
